A study of Homo sapiens with 42 samples.

Results

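The protein-coding genes with the longest annotated spans in K562 cells were followed through treatment with imatinib, with JTE-607 and with potassium chloride. They were chosen by 3 limits. The span from the lowest annotated start to the highest annotated end had to reach 300 kb, the biotype had to be protein coding, and the mean nuclear CPM (read pairs of the gene per 1000000 read pairs counted in the library) over 15 nuclear libraries had to reach 1. Of 58243 genes in the tables, 786 protein-coding genes reached the span limit, and 359 of these also reached the CPM limit, while 427 did not. The 7483 protein-coding genes with spans of 10 to 100 kb that passed the same CPM limit served for comparison. Because the CPM limit used the treated libraries too, members were partly selected on the readout. 338 of the 359 members had a mean CPM of 1 or more in the untreated nuclear libraries alone, whereas 21 had less and passed only through groups in which they were higher. Nuclear values of those 21 genes are therefore given as descriptions without a test.

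K562 is a human chronic myelogenous leukemia line that carries the BCR-ABL fusion kinase. Cells were untreated (CTRL), exposed to 1 µM of the BCR-ABL inhibitor imatinib for 1, 6 or 18 hours (IM 1h, IM 6h and IM 18h), to 5 µM JTE-607, a compound that inhibits the pre-mRNA endonuclease CPSF73, for 1, 6 or 18 hours (JTE 1h, JTE 6h and JTE 18h), or to 110 mM KCl, which imposes hyperosmotic stress, for 1 or 3 hours (KCl 1h and KCl 3h). Poly(A)-selected mRNA was sequenced from all 9 groups, and rRNA-depleted nuclear RNA from CTRL, IM 1h, IM 18h, JTE 1h and KCl 1h, with 3 libraries per group and 42 in all. The labels call the 3 libraries of a group biological replicates, all of 1 cell line, and the p values measure the spread between these libraries alone.

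A polymerase that enters a very long gene needs hours to reach its end, and most of what it transcribes is intron. Genes of this size often encode adhesion proteins, channels, scaffolds and signalling enzymes of neurons and muscle, and several coincide with common fragile sites, where late replication and transcription meet. RNA in the nucleus includes transcripts that are still being made or spliced, while poly(A)-selected RNA is dominated by finished messages. CPSF73 cuts the pre-mRNA at the poly(A) site, and when cutting fails the polymerase can continue into the DNA beyond the gene.

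Library totals lay between 16175394 and 25103205 read pairs in nuclear RNA and between 16439848 and 62953314 in mRNA, where 2 KCl 1h libraries were the deepest. The members held 1.80 to 2.53% of the nuclear and 1.31 to 2.07% of the mRNA counts. Untreated cells carried erythroid markers, with HBG2 at 1250 CPM, TFRC at 1332 CPM and GATA1 at 166 CPM in mRNA. Of 8 markers of other cell types, MS4A1 had no counts and CD3E and MBP were near 0, whereas EPCAM stood at 91.0 CPM. The nuclear-retained RNAs MALAT1, NEAT1 and KCNQ1OT1 were all higher in nuclear RNA than in mRNA. In bulk RNA, fewer cells that express a gene and less RNA per cell cannot be told apart.

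The members had a median span of 422 kb, with RBFOX1, an RNA-binding splicing regulator, as the longest at 2474 kb, followed by the dystrophin gene DMD at 2242 kb and the synaptic scaffold gene DLG2 at 2173 kb. 157 members were shorter than 400 kb and 19 reached 1 Mb. Exons made up 2.10% of the span at the median, against 15.9% in genes of 10 to 100 kb, and the longest stretch between exons had a median of 104 kb against 9.11 kb. The median number of exon blocks was 26 against 11. Members were spread over 23 chromosomes, with the most on chromosome 3 (34 genes). Their mean nuclear CPM had a median of 15.8 against 34.8, and per kb of exon it was 1.69 against 6.70 CPM. In untreated cells the log2 ratio of nuclear to mRNA CPM (0.5 added to each) was 0.36 at the median of members and 0.22 in genes of 10 to 100 kb. It lay above 0 in 290 of 359 members and in 4806 of 7483 shorter genes. Alignment allowed introns of up to 10000 bases, so some spliced pairs were lost. A longer gap between exons is present in all members and in 3420 of the shorter genes. How far this moved CPM and the ratio was not tested.

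An annotated span is not always the transcribed length. RefSeq gave a span for 355 members, under 300 kb for 32 and under 100 kb for 9. Among the latter was the fetal globin gene HBG2 (1.59 kb in RefSeq, 393 kb in the annotation used for counting), which was long only through distant annotated exons. HBG2 alone held 9.71% of the nuclear counts of all members. Alignment kept uniquely placed reads only, so pairs that match HBG2 and the near-identical HBG1 equally well were not counted. Per kb of exon HBG2 was also the most abundant member in nuclear RNA at 970 CPM, followed by the transcriptional coactivator and nuclease gene SND1 (90.4), CPED1 (81.6), PRKCB (56.9) and the retinoic acid synthesis gene ALDH1A2 (51.0). At the limits of the rule, the 3 shortest members were NOS1AP, KMT2C and SIPA1L3 (300702 to 301145 bases), and the 3 nearest genes outside were BAZ2B, CHCHD3 and ZDHHC14 (297714 to 297014 bases). The members nearest the CPM limit were HTR2C, NAV2 and HIVEP3 (1.02 to 1.07), and those just under it PPM1L, ZNF804A and TRPC5 (0.990 to 0.975).

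RefSeq (GRCh38.p14) held a 300-base promoter, from 250 bases before to 50 after the start, for 297 of the 359 members and for 6167 of the 7483 shorter genes. These 4 are shown because the results below turn on the genes they belong to. OSBPL10 (chr3:31981213-31981512, minus strand, a start inside the annotated span) and LDLRAD4 (chr18:13217722-13218021, plus strand) rose after JTE-607 and KCl, ASTN1 (chr1:177164663-177164962, minus strand) rose and PRKCB (chr16:23835733-23836032, plus strand) fell after IM 18h. Capitals mark matches on either strand to the GC box GGGCGG, the AP-1 motif TGACTCA and the GATA factor motif AGATAA. The TATA box TATAAA, the cyclic AMP response motif TGACGTCA and the STAT factor motif TTCNNNGAA were searched as well.
OSBPL10: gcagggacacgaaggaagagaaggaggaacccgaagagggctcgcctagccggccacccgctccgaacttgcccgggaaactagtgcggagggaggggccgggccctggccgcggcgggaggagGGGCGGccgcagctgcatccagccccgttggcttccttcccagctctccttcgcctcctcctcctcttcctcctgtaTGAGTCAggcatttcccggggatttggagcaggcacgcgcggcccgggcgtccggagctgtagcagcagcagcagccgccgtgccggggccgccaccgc
LDLRAD4: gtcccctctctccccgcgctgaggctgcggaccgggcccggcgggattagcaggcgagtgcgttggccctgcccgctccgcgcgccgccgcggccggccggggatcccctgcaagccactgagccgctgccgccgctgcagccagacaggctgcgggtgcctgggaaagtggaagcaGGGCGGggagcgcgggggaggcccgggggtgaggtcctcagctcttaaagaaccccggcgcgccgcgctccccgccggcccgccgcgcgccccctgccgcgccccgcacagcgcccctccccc
ASTN1: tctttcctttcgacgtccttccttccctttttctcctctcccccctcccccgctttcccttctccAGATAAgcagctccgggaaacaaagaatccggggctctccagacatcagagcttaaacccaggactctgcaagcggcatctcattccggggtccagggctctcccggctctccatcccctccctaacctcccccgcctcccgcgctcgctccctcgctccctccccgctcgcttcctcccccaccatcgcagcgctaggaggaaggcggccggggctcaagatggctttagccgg
PRKCB: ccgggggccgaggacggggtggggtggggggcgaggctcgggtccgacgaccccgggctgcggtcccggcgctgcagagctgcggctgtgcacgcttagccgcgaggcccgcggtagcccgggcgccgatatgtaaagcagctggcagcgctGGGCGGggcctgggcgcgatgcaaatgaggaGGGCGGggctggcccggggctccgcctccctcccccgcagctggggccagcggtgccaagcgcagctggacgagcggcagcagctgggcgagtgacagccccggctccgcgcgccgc
The GC box was present in 62.6% of member promoters, 70.8% of those of 10 to 100 kb genes and 44.6% of all 27305 promoters. AGATAA was present in 6.73%, 4.86% and 10.5%, and TATAAA in 6.40%, 4.73% and 11.95%. Among members called higher in nuclear RNA, AGATAA stood in 7 of 73 promoters for IM 18h, 1 of 20 for JTE 1h and 2 of 33 for KCl 1h. TTCNNNGAA was found in 7 of 73, 3 of 20 and 3 of 33, beside 7.88% of all promoters, and TGACGTCA in 2 of 73, 0 of 20 and 2 of 33, beside 1.98%. TGACTCA stood in 4 of 73, 1 of 20 and 1 of 33, beside 4.92%. The GC content of the 300 bases had a median of 66.0% in members and 65.3% in genes of 10 to 100 kb. These matches are a description of letters and were not tested.

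Treatment was compared with CTRL by edgeR's quasi-likelihood test on the counts of all genes of a fraction, and a gene was called when its Benjamini-Hochberg adjusted p was under 0.05 and its log2 fold change was beyond 0.6. All 359 members could be tested in nuclear RNA (21929 genes tested in all) and 355 in mRNA (18095 genes). After 18 hours of imatinib 94 members were called higher and 49 lower in nuclear RNA, where 17.2% and 15.4% of all genes tested were called. These were 26.2% and 13.6% of the members, whereas 14.4% of the genes of 10 to 100 kb were called higher and 18.9% lower. The median log2 fold change was 0.23 over members and -0.09 over genes of 10 to 100 kb. Among the 338 members at 1 CPM or more in CTRL, 83 were called higher and 49 lower, or 24.6% and 14.5%, against 13.4% and 19.5% of 10 to 100 kb genes under the same limit. Normalization on the 10 to 100 kb genes alone raised the median log2 fold change of protein-coding genes over 10 kb by 0.12 in this comparison and gave 113 members higher and 38 lower.

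The share of genes called higher after IM 18h was larger in longer classes. It was 12.5% in genes under 10 kb, 20.8% at 300 to 500 kb (49 of 236), 32.7% at 500 to 1000 kb (34 of 104) and 57.9% at 1 Mb or more (11 of 19), with median log2 fold changes of -0.21, 0.21, 0.22 and 0.85. The class of 1 Mb or more is thinly filled. All classes include genes under 1 CPM in CTRL, which passed the CPM limit only through treated libraries. Of the 21 such members, 11 were called higher and 0 lower after IM 18h, with a median log2 fold change of 0.86. The classes, and the correlations that follow, are therefore partly selected on the readout. How far this made the trend with span was not tested. Across the members alone Spearman's correlation between span and log2 fold change was 0.08 (359 genes, which share the same 6 libraries). Between mean nuclear CPM and log2 fold change it was -0.18. Over all 11994 protein-coding genes at the CPM limit the correlations were 0.14 with span and -0.20 with mean nuclear CPM. The parts of span and CPM were not separated. In the JTE 1h and KCl 1h comparisons the medians climbed from genes under 10 kb (-0.13 and -0.07) to genes of 100 to 200 kb (0.09 and 0.13) and differed little among the member classes (0.11 to 0.16 and 0.17 to 0.19).

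**Figure D1:**
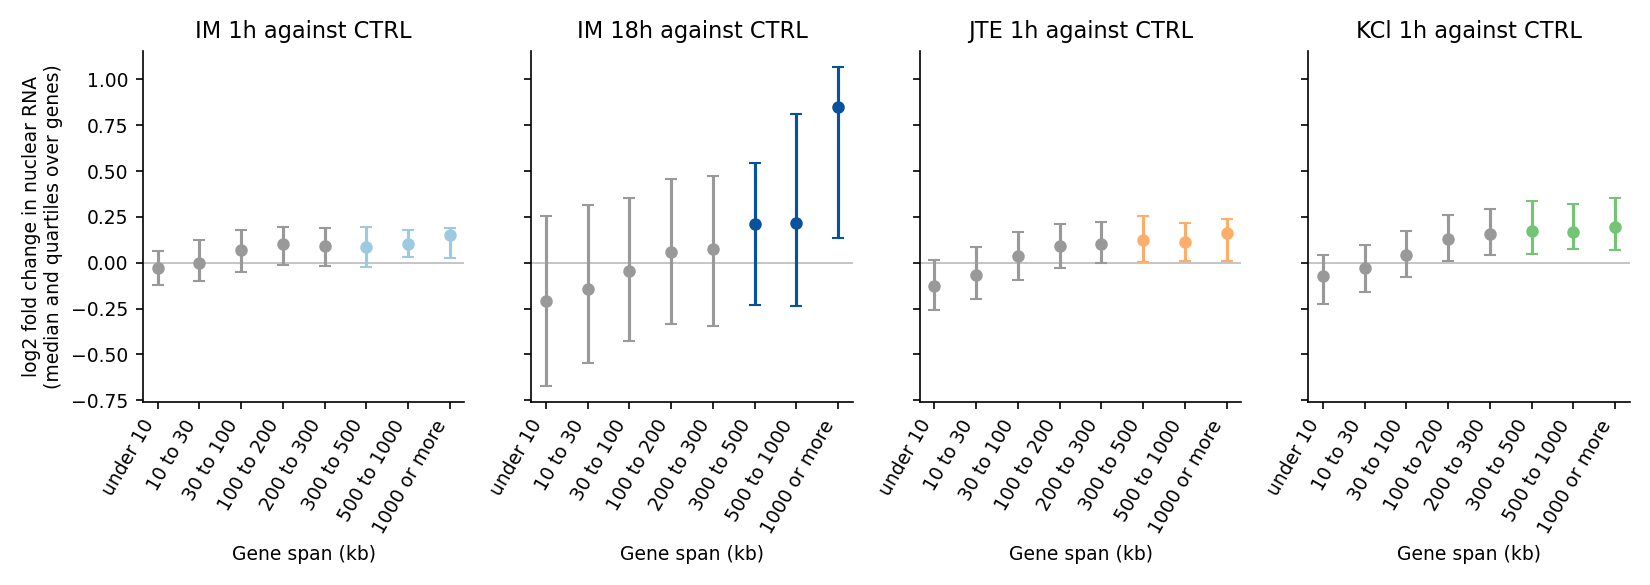
Median log2 fold change in nuclear RNA, with quartiles over genes, for protein-coding genes with a mean nuclear CPM of 1 or more, by annotated span in kb, in the 4 comparisons with CTRL. Coloured points are the classes that hold members (300 kb and over), and in IM 18h the 19 genes of 1 Mb or more have the highest median, 0.85. The classes include genes under 1 CPM in CTRL, which were selected on their treated libraries.

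The difference between members and shorter genes was also read library by library. The score of a library was the median of log2((CPM + 0.5)/(CTRL mean + 0.5)) over members minus that over genes of 10 to 100 kb. In nuclear RNA it was 0.00080 ± 0.054 in CTRL (SD, n = 3), 0.050 ± 0.046 in IM 1h, 0.283 ± 0.125 in IM 18h, 0.11 ± 0.067 in JTE 1h and 0.17 ± 0.040 in KCl 1h. The IM 18h libraries (0.17 to 0.42) and the KCl 1h libraries (0.13 to 0.21) all lay above the highest CTRL library (0.060), while IM 1h and JTE 1h overlapped with CTRL. Within same-numbered nuclear libraries, treated minus CTRL was 0.0031 to 0.10 for IM 1h, 0.093 to 0.12 for JTE 1h, 0.15 to 0.20 for KCl 1h and 0.21 to 0.36 for IM 18h. In mRNA the IM 18h libraries (0.14 to 0.23) stood above CTRL (-0.083 to 0.049), and the KCl 3h libraries (0.027 to 0.15) overlapped with CTRL. The score has no test, since the members were chosen with results known.

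**Figure D2:**
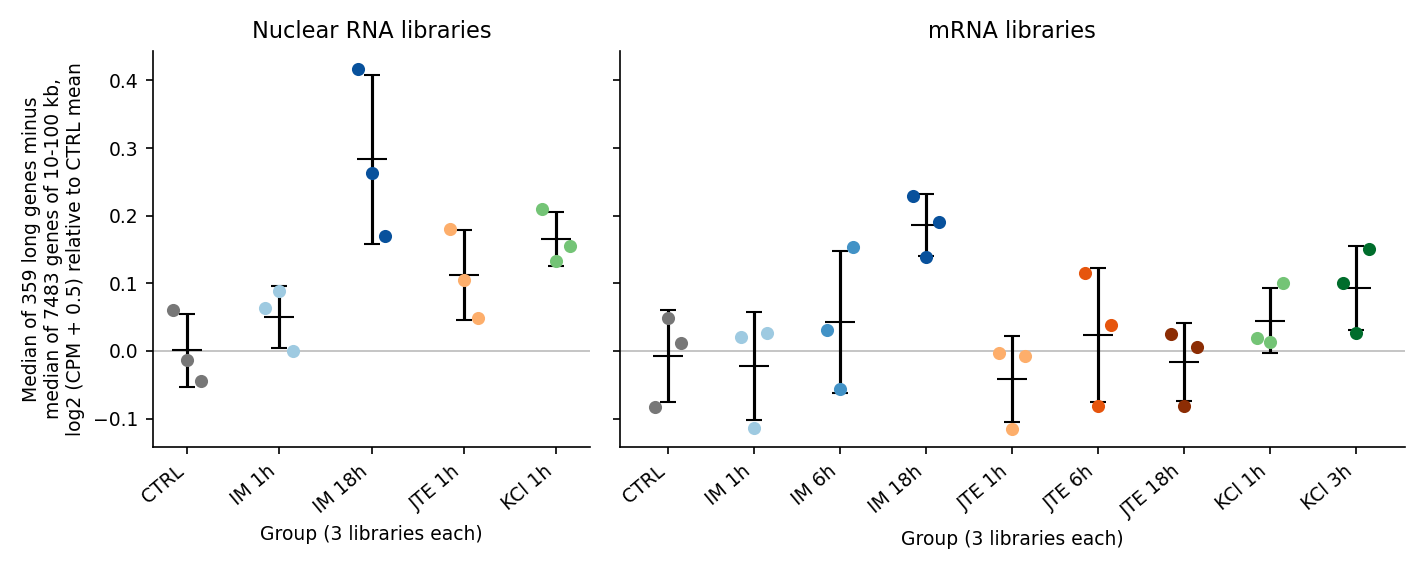
Median log2 level of the 359 members minus that of the 7483 genes of 10 to 100 kb, relative to the CTRL mean, in each nuclear and mRNA library (points), with group mean and SD (bars, n = 3). The IM 18h group mean is the highest in both fractions, with its libraries from 0.17 to 0.42 in nuclear RNA and 0.14 to 0.23 in mRNA.

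Among the members that rose most after IM 18h were ASTN1 and COL25A1. ASTN1, an astrotactin that guides neuronal migration, measured 1.20, 0.988 and 1.01 CPM in the CTRL nuclear libraries and 14.1, 10.9 and 9.09 CPM after IM 18h. The groups did not overlap, and the log2 fold change was 3.35 ± 0.31 (SE, edgeR adjusted p = 6.79e-08). COL25A1, a transmembrane collagen, went from 0.974, 0.718 and 1.62 CPM to 14.3, 9.41 and 7.98 CPM, a log2 fold change of 3.21 ± 0.26 (adjusted p = 1.14e-08). Both genes also rose in mRNA, by 3.17 ± 0.30 (adjusted p = 3.56e-08) and 3.17 ± 0.49 (adjusted p = 1.98e-05) on the log2 scale. ASTN1 was already up in mRNA at IM 6h, with a log2 fold change of 1.73 ± 0.30 (adjusted p = 0.00038). The other large nuclear rises were in genes below 1 CPM in CTRL and are given without a test. They were the sodium-activated potassium channel gene KCNT2 (0.577 to 8.37 CPM), the serotonin receptor gene HTR2C (0.387 to 3.38), the adhesion gene CADM2 (0.663 to 5.64) and the dynein intermediate chain gene DYNC1I1 (0.408 to 2.41). In mRNA, whose libraries the CPM limit did not use, HTR2C rose by 3.07 ± 0.53 on the log2 scale (adjusted p = 6.59e-05). HTR2C was a member only through treated nuclear libraries, and how far that bears on this p was not tested.

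Among the members that fell most after IM 18h were MAGI1, GABBR2, TMTC2 and PRKCB. MAGI1, a scaffold of cell junctions, measured 75.5, 55.1 and 51.1 CPM in CTRL nuclear RNA and 8.78, 9.17 and 8.35 CPM after IM 18h. Its log2 fold change was -2.86 ± 0.21 (adjusted p = 2.25e-08), and in mRNA it was -2.04 ± 0.19 at IM 6h already (adjusted p = 4.5e-07). PRKCB, the protein kinase C beta gene and 1 of the most abundant members, went from 670, 601 and 589 CPM to 154, 203 and 164 CPM. It fell by 1.90 on the log2 scale (SE 0.11, adjusted p = 2.19e-10). In neither gene did the groups overlap. The GABA-B receptor subunit gene GABBR2 fell by 2.69 (SE 0.34), TMTC2 by 2.37 (SE 0.36), KAZN, which encodes a desmosomal protein, by 1.85 (SE 0.14) and the splicing regulator gene CELF2 by 1.71 (SE 0.34), with adjusted p values from 5.56e-09 to 0.0012.

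**Figure D3:**
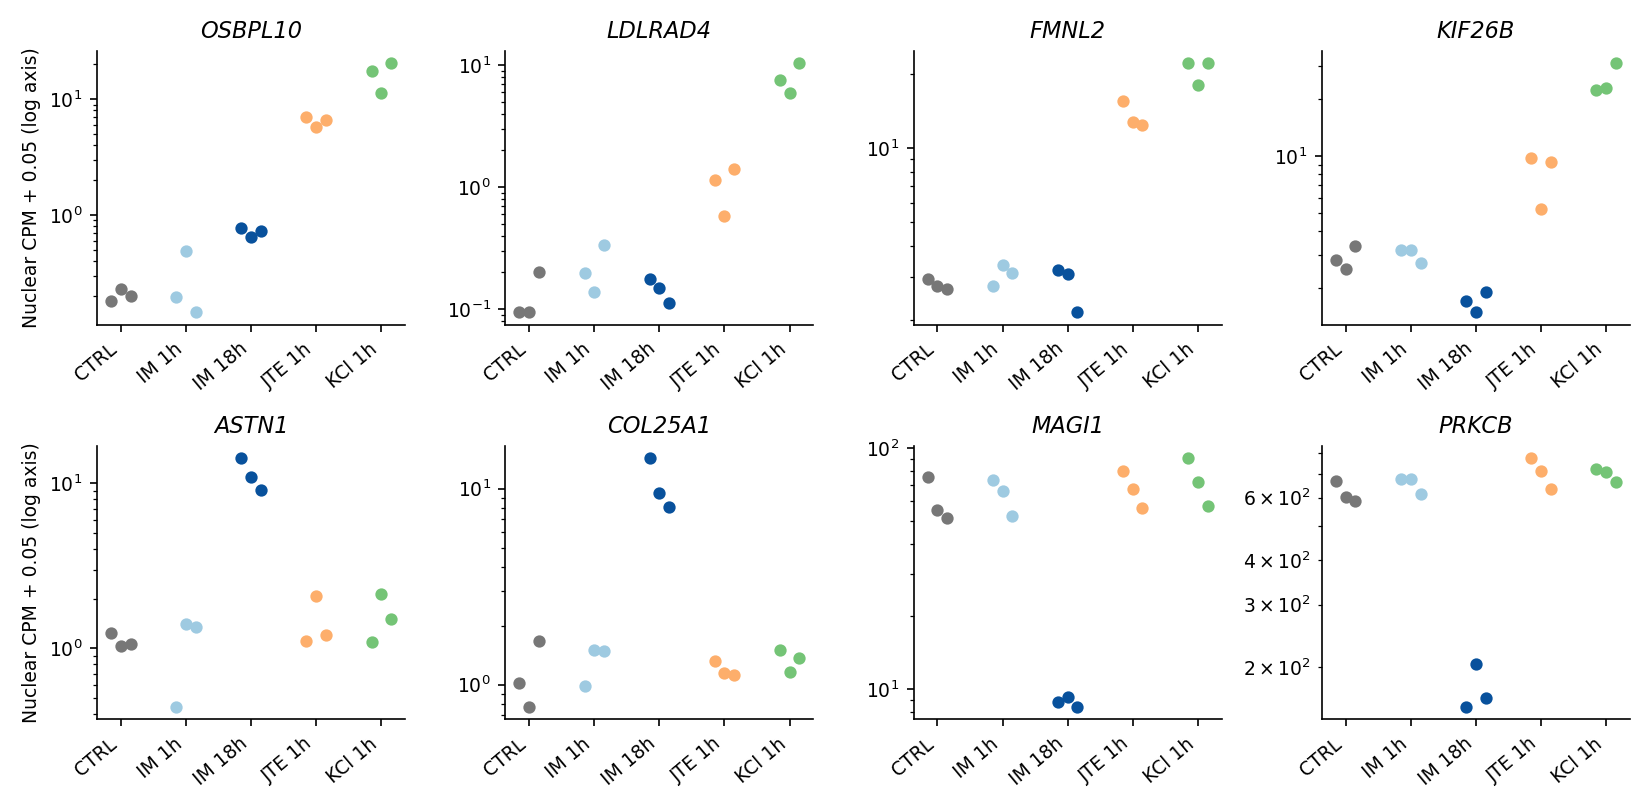
Nuclear CPM plus 0.05 on a log axis for 8 members in the 15 nuclear libraries, 3 points per group. OSBPL10, LDLRAD4, FMNL2 and KIF26B are highest in JTE 1h and KCl 1h, ASTN1 and COL25A1 are highest in IM 18h, and MAGI1 and PRKCB are lowest in IM 18h.

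Members were also read by role, in lists that share genes. Their counts after IM 18h stand beside 17.2% of all genes and 26.2% of members called higher, and 15.4% and 13.6% called lower. The lists are small and were not tested. They include members under 1 CPM in CTRL, which were selected on their treated libraries. Over all members, such genes gave 11 of the rises in nuclear RNA and 0 of the falls. Of 10 common fragile site genes, 5 rose and none fell in nuclear RNA after IM 18h, with a median log2 fold change of 0.65. Among them were FHIT, a diadenosine triphosphate hydrolase (1.08 ± 0.13), EXOC4, an exocyst subunit (0.72 ± 0.088), and PDE4D, a cyclic AMP phosphodiesterase (0.93 ± 0.19). DMD did not reach the fold limit (0.58 ± 0.14, adjusted p = 0.0019), nor did IMMP2L (-0.17 ± 0.10). Of 12 adhesion, axon guidance and synaptic membrane genes 5 rose and 3 fell, with TENM1, a teneurin, at 1.40 ± 0.17 and KAZN at -1.85 ± 0.14. Of 20 ion channel and transporter genes 7 rose and 3 fell, and of 30 transcription factors and chromatin regulators 8 rose and 3 fell. The most abundant of the latter, the histone methyltransferase gene KMT2C, missed the fold limit (0.55 ± 0.10), while ZFPM2, a GATA cofactor, rose by 0.85 (SE 0.12).

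Of 16 kinase and phosphatase genes 1 was higher and 4 were lower, PRKCB among the latter. PTK2 (0.32 ± 0.090) and PRKCA (0.37 ± 0.085) stayed within the fold limit. Small GTPase regulators counted 3 higher and 3 lower of 21, and enzymes of metabolism 5 and 5 of 23. The former included TBC1D5 (1.26 ± 0.098) and ASAP1 (1.03 ± 0.093), and the latter ALDH1A2 (-1.07 ± 0.095) and MGAT5 (-1.08 ± 0.13). Cytoskeleton and trafficking genes counted 6 higher and 3 lower of 27. RNA-binding protein genes counted 1 higher and 2 lower of 8, with EIF4G3 at -0.70 ± 0.11, ubiquitin system genes 2 and 2 of 5, and cyclic nucleotide genes 2 and 0 of 4, AKAP6 (1.94 ± 0.28) being 1 of them. Of 35 transcription elongation factor genes, none of which is a member, 2 were higher and 0 lower after IM 18h, 0 and 0 after JTE 1h, and 1 and 0 after KCl 1h.

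After 1 hour of imatinib no member was called in nuclear RNA, where 0.00456% of all genes were called higher and 0.0410% lower. An unadjusted p under 0.05 was reached by 4 members, and DESeq2 also called none. The median log2 fold change was 0.10 over members and 0.03 over genes of 10 to 100 kb.

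JTE-607 for 1 hour left 26 members higher and none lower in nuclear RNA, where 7.00% of all genes were called higher and 1.51% lower. This was 7.24% of the members, near the share of all genes, and it compares with 308 of 7483 genes of 10 to 100 kb called higher and 41 lower. Among members at 1 CPM or more in CTRL it was 19 of 338, against 150 of 7169 shorter genes. KCl for 1 hour left 40 members higher and none lower, where 15.3% of all genes were called higher and 8.50% lower. Of the 338 members at 1 CPM or more in CTRL, 27 were called higher, or 7.99%, and 297 of 7169 shorter genes, or 4.14%. The median log2 fold changes of members and of genes of 10 to 100 kb were 0.11 and -0.01 for JTE 1h and 0.17 and 0.01 for KCl 1h.

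Most members that rose after JTE-607 lay opposite an expressed gene. A facing gene was defined, after the values were seen, as a gene of the opposite strand with a mean nuclear CPM of 10 or more whose end lay within 50 kb beyond the 3′ end of the member. Genes that overlap a member were not counted as facing it. 54 members had a facing gene, and 19 of these were called higher after JTE 1h (35.2%), against 7 of the other 305 (2.30%). After KCl 1h the numbers were 23 of 54 (42.6%) and 17 of 305 (5.57%). With CTRL at 1 CPM or more they were 15 of 47 and 4 of 291 for JTE 1h, and 16 of 47 and 11 of 291 for KCl 1h. In genes of 10 to 100 kb the same split gave 7.09% and 2.85% for JTE 1h, and 11.9% and 5.14% for KCl 1h. After IM 18h 11 of 54 members with a facing gene and 83 of 305 without were called higher, and 6 and 43 were called lower.

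An expressed gene of the same strand ending within 50 kb upstream was found for 41 members, of which 4 were higher after JTE 1h and 8 after KCl 1h. The 270 members with neither neighbour held 6 called genes for JTE 1h (2.22%) and 13 for KCl 1h (4.81%), and 1.90% and 3.24% of the 3523 such genes of 10 to 100 kb were called higher. The median log2 fold change of these 270 members and of shorter genes without neighbours was 0.10 and 0.02 for JTE 1h, and 0.16 and 0.01 for KCl 1h. This class keeps genes whose neighbour overlaps them, lies beyond 50 kb or has under 10 CPM. Of the 270, 258 had 1 CPM or more in CTRL. Read pairs had been counted without regard to strand although the libraries keep it, so transcripts of a facing gene that run past its end into exons of a member and transcripts of the member itself cannot be told apart in these counts. The part of neighbours in the rises was not tested.

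**Figure D4:**
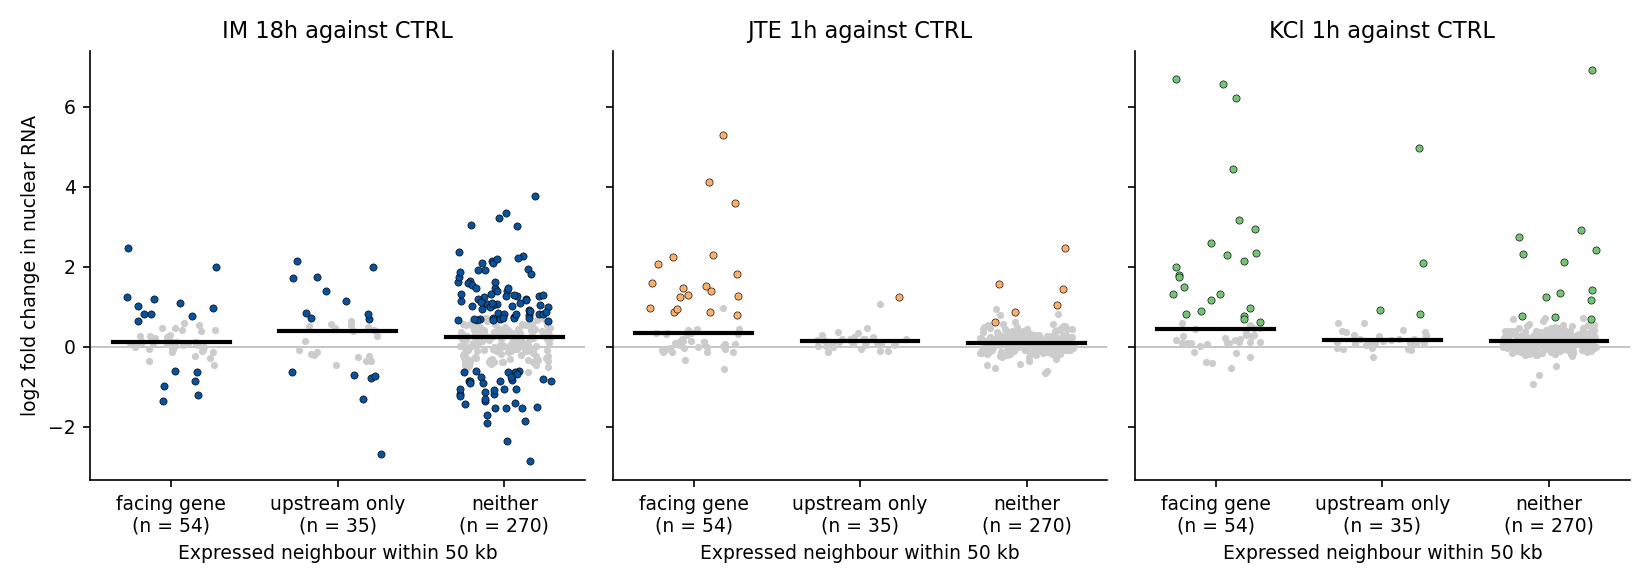
Log2 fold change in nuclear RNA of the 359 members by expressed neighbour within 50 kb (54 with a facing gene, 35 with only an upstream gene, 270 with neither), with horizontal lines at the medians and coloured points for called members. After JTE 1h 19 of the 26 called members, and after KCl 1h 23 of the 40, have a facing gene. Genes that overlap a member are not counted as neighbours.

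OSBPL10, a member of the oxysterol-binding protein family, had the largest fitted fold change of all members after JTE 1h. It measured 0.133, 0.180 and 0.151 CPM in CTRL nuclear RNA, 6.92, 5.66 and 6.53 CPM after JTE 1h, and 17.6, 11.3 and 20.4 CPM after KCl 1h. The ratio of summed CPM to CTRL was 41.4 (95% exact interval 22.3 to 86.9, counting error only) for JTE 1h and 105 (57.1 to 221) for KCl 1h. OSBPL10 passed the CPM limit only through treated libraries, so these nuclear values and intervals are descriptions and not a test. The gene STT3B faces OSBPL10 at a distance of 20267 bases. In mRNA, whose libraries the CPM limit did not use, OSBPL10 rose by 3.03 ± 0.54 on the log2 scale at JTE 1h (edgeR adjusted p = 0.0041). The rise was 4.44 ± 0.49 at KCl 1h (adjusted p = 2.48e-06) and 4.83 ± 0.49 at KCl 3h (adjusted p = 2.58e-07). How far the selection of OSBPL10 through treated nuclear libraries bears on these p values was not tested.

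LDLRAD4, which encodes a membrane protein that restrains TGF-beta signalling, measured 0.0443, 0.0449 and 0.151 CPM in CTRL nuclear RNA. It reached 1.10, 0.527 and 1.35 CPM after JTE 1h and 7.43, 5.84 and 10.3 CPM after KCl 1h, and FAM210A faces it at 10591 bases. The ratios of summed CPM were 13.2 (5.39 to 41.8) and 101 (43.0 to 313). In mRNA no read pair fell on LDLRAD4 in any CTRL library, and it was at least 9.42-fold higher at KCl 1h (against 3 counts per library, edgeR adjusted p = 2.48e-06) and at least 1.47-fold higher at JTE 1h (adjusted p = 0.027). MTUS2, a microtubule-associated protein gene that SLC7A1 faces at 3462 bases, gave ratios of 18.2 (9.35 to 40.4) and 77.8 (40.7 to 171) in nuclear RNA. Both LDLRAD4 and MTUS2 passed the CPM limit only through treated libraries, so their nuclear ratios and intervals are descriptions. How far this selection bears on the mRNA p values of LDLRAD4 was not tested.

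FMNL2, a formin that builds actin filaments, started from a measurable level. It measured 2.88, 2.69 and 2.63 CPM in CTRL, 15.5, 12.7 and 12.3 CPM after JTE 1h, and 22.1, 18.0 and 22.1 CPM after KCl 1h. The log2 fold changes were 2.30 ± 0.16 (adjusted p = 2.42e-08) and 2.93 ± 0.16 (adjusted p = 1.25e-10). EYS, a photoreceptor gene of 1987 kb, had no facing or upstream expressed gene by the definitions used, which leave out genes that overlap it. It went from 1.02, 1.08 and 0.959 CPM to 6.58, 6.04 and 4.46 CPM after JTE 1h and 7.43, 7.46 and 8.09 CPM after KCl 1h. Its log2 fold change was 2.47 ± 0.23 for JTE 1h (adjusted p = 1.03e-06). SRGAP1, a GTPase-activating protein gene at 0.527 CPM in CTRL, measured 2.49 CPM after JTE 1h and 3.18 CPM after KCl 1h.

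PPP2R2B, a regulatory subunit gene of protein phosphatase 2A, had no facing or upstream expressed gene within 50 kb, with overlapping genes not counted. It measured 0.0443, 0.0449 and 0.0505 CPM in CTRL, 0.0844, 0 and 0 after JTE 1h, and 5.30, 4.69 and 8.82 CPM after KCl 1h. The ratio for KCl 1h was 135 (45.8 to 657), from 3 CTRL counts in all. It is a description, since PPP2R2B passed the CPM limit only through treated libraries. The potassium channel gene KCNJ6 went from 0.199 ± 0.062 to 6.45 ± 2.19 CPM (SD, n = 3) and the synaptic scaffold gene SHANK2 from 0.382 ± 0.18 to 8.50 ± 3.40 CPM. Whether these genes differed between the compounds was not tested, and both comparisons share the CTRL libraries. 

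By role, the members called higher after KCl 1h were 4 of 21 GTPase regulators, 3 of 16 kinases and phosphatases, 3 of 27 cytoskeleton and trafficking genes, 3 of 20 channels and transporters, 2 of 30 transcription and chromatin regulators, 2 of 5 ubiquitin system genes, and 1 each of 10 fragile site genes, 12 adhesion genes and 23 enzymes. None of 8 RNA-binding protein genes and 4 cyclic nucleotide genes was called. These counts, like those for JTE 1h below, include members selected on their treated libraries. They stand beside 15.3% of all genes and 11.1% of members called higher. After JTE 1h, beside 7.00% and 7.24%, the called members were 2 GTPase regulators, 2 cytoskeleton genes, 2 ubiquitin system genes and 1 each of the kinases, channels, transcription regulators and enzymes, with none in the other 4 lists of members.

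After IM 18h, most members called in mRNA were called in nuclear RNA in the same direction. In mRNA 83 members were called higher and 42 lower, where 17.2% and 13.2% of all genes were called, and 66 were higher and 39 lower in both fractions. The 66 were 70.2% of the nuclear and 79.5% of the mRNA rises. Among the 335 tested members at 1 CPM or more in CTRL nuclear RNA, 74 were higher and 42 lower in mRNA. Across 355 members Pearson's r between the 2 log2 fold changes was 0.90 (Spearman's correlation 0.91), and it was 0.92 across 7379 genes of 10 to 100 kb. In JTE 1h it was 0.60 (Spearman's 0.22) and in KCl 1h 0.73 (Spearman's 0.43) over members. Genes are not independent replicates, and these values describe the libraries.

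**Figure D5:**
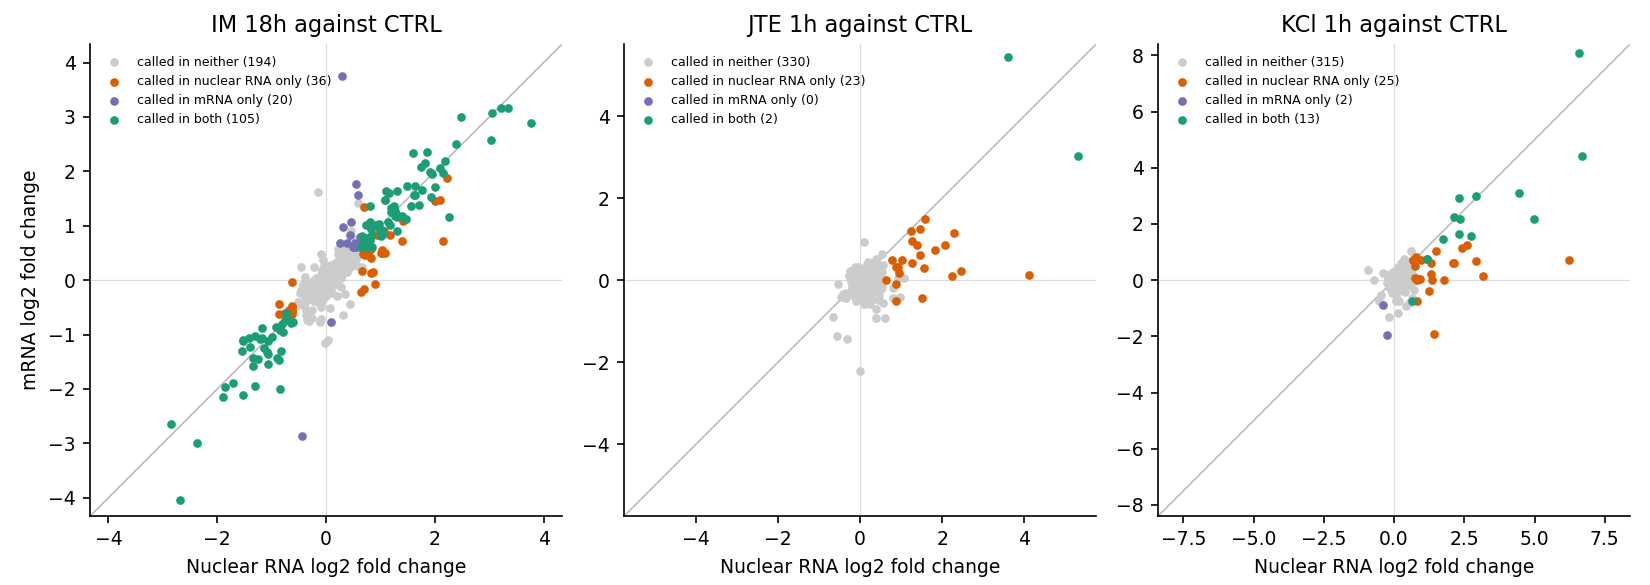
Log2 fold change of 355 members in mRNA (vertical) against nuclear RNA (horizontal) for IM 18h, JTE 1h and KCl 1h, each point 1 member, coloured by the fraction in which it was called, with a line at equality. IM 18h holds 105 members called in both fractions, JTE 1h 2 and KCl 1h 13, of which 12 were higher in both.

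In mRNA after JTE 1h only OSBPL10 and LDLRAD4 were called among members, both higher, where 0.387% of all genes were called higher and 0.464% lower. Both were members only through treated nuclear libraries, and 0 of the 335 tested members at 1 CPM or more in CTRL nuclear RNA were called. In a fit of the 6 libraries of both groups alone OSBPL10 missed the threshold (adjusted p = 0.109), and LDLRAD4 lost its call without any 1 of 5 libraries. At JTE 6h 30 members were higher and 3 lower (6.73% and 6.47% of all genes), and 15 of the 30 were among the 53 tested members with a facing gene. The other 302 members held 15 higher and 3 lower genes. Among the 335 tested members at 1 CPM or more in CTRL nuclear RNA, 25 were higher and 3 lower at JTE 6h. With a facing gene 12 of 46 of these were higher, and 13 of 289 without. RARB, a retinoic acid receptor gene, rose by 3.55 ± 0.49 (adjusted p = 1.01e-05) and the endocytic receptor gene CUBN by 4.26 ± 0.72 (adjusted p = 0.00014) on the log2 scale. The 3 that fell were RPTOR, the mTOR complex scaffold, at -0.99 ± 0.13 (adjusted p = 8.6e-06), PRELID2 at -0.70 ± 0.16 and WDR7 at -0.62 ± 0.14. At JTE 18h 8 members were higher and 9 lower (3.29% and 2.09% of all genes), with ZFPM2 at -1.69 ± 0.21 (adjusted p = 1.32e-05) and GTDC1 at -1.35 ± 0.17. Among the 335 members at 1 CPM or more in CTRL nuclear RNA the JTE 18h counts were 7 and 9.

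KCl left 12 members higher and 3 lower in mRNA at 1 hour (2.51% and 2.94% of all genes) and 21 higher and 10 lower at 3 hours (4.55% and 7.33%). All 12 were higher in nuclear RNA too, or 30% of its 40 rises. Among the 335 tested members at 1 CPM or more in CTRL nuclear RNA, 7 were higher and 3 lower in mRNA at KCl 1h (2.09% and 0.896%), and 15 and 10 at KCl 3h. The other members were selected on their treated nuclear libraries. Of 53 members with a facing gene 10 were higher and 4 lower at KCl 3h, and of the other 302, 11 and 6. At KCl 1h the counts were 7 and 3 of 53, and 5 and 0 of 302. With 1 CPM or more in CTRL nuclear RNA, the KCl 3h counts were 5 and 4 of 46, and 10 and 6 of 289. In genes of 10 to 100 kb they were 88 and 83 of 2183 with a facing gene, and 125 and 277 of 5196 without. FMNL2 rose by 3.62 ± 0.29 at KCl 3h (adjusted p = 7.4e-09). MARCHF1, a ubiquitin ligase gene for membrane proteins, fell from 8.84, 8.14 and 7.34 CPM to 1.92, 2.34 and 1.86 CPM at KCl 1h and 1.06, 1.73 and 0.642 CPM at KCl 3h. The log2 fold changes were -1.95 ± 0.29 (adjusted p = 8.76e-05) and -2.76 ± 0.32 (adjusted p = 1.29e-06). The groups did not overlap. CDH4, a cadherin gene, and TTN, which encodes titin, also fell at KCl 1h, by 0.89 (SE 0.26, adjusted p = 0.036, lost without any 1 of the 6 libraries) and 0.76 (SE 0.19, adjusted p = 0.013), and MCTP1 and STXBP5L fell at KCl 3h by 1.51 (SE 0.33) and 1.50 (SE 0.37).

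Imatinib for 6 hours left 23 members higher and 19 lower in mRNA, where 5.82% and 4.12% of all genes were called. Among the 335 tested members at 1 CPM or more in CTRL nuclear RNA the counts were 20 and 19. At IM 1h none was called (0% of all genes higher and 0.0166% lower), and 3 members had an unadjusted p under 0.05. DESeq2 also called none at IM 1h.

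The difference between nuclear and mRNA responses was tested directly, with an interaction term over the 12 libraries of both fractions. For KCl 1h, 5 members were called with a larger log2 fold change in nuclear RNA and none with a smaller one, 4 of them at 1 CPM or more in CTRL, where 0.588% and 0.0806% of all genes were called. They were KIF26B (2.90 ± 0.35), EYS (2.16 ± 0.43), MARCHF1 (1.60 ± 0.34) and TTN (1.28 ± 0.19), with edgeR adjusted p values of 0.00081, 0.031, 0.043 and 0.0046, and MTUS2 (5.43 ± 0.83), which was selected on its treated nuclear libraries and is given without p. KIF26B, a kinesin family gene, measured 2.79, 2.47 and 3.28 CPM in CTRL nuclear RNA and 22.3, 22.8 and 31.0 CPM after KCl 1h, but 1.09, 0.998 and 1.85 CPM and then 1.25, 1.18 and 1.91 CPM in mRNA. The nuclear groups were separate and the mRNA groups overlapped. TTN rose in nuclear RNA, from 169, 137 and 152 CPM to 261, 209 and 228 CPM, while it fell in mRNA, from 42.2, 47.2 and 43.1 CPM to 29.6, 25.1 and 22.9 CPM. PLEKHA3 faces TTN at 9526 bases, and 15.6% of its exon bases are shared with other genes.

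For IM 18h and JTE 1h no member was called in the interaction (0.0551% and 0.0351% of all genes were called higher and lower for IM 18h, 0.0555% and 0.00504% for JTE 1h). An unadjusted p under 0.05 was reached by 16 and 29 members. The nuclear replicate numbers paired the libraries, and with the replicate number as a block 8 members were called for KCl 1h (the numbers of mRNA CTRL replicates 1 and 2 are uncertain), adding STXBP5L (1.44), PDZD2 (1.68) and KCNJ6 (2.69, also selected on treated libraries), and 2 for JTE 1h, KIF26B (1.93) and TTN (0.85).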

How the data were processed

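Poly(A)-selected mRNA (27 libraries) and rRNA-depleted nuclear RNA (15 libraries) of K562 cells were sequenced in 14 groups of 3. The deposited tables hold raw counts, in read pairs for each gene. To make them, the authors trimmed and deduplicated reads with fastp, aligned them uniquely to hg38 with STAR, allowing introns of up to 10000 bases, and counted exons with featureCounts. All 359 members have a gap of over 10 kb between exons, as do 3420 of 7483 genes of 10 to 100 kb, so some spliced pairs could not be aligned. Counting used no strand option, and the annotation release was not given in the sources used here.

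Counts were tested with edgeR (4.0.16, R 4.3.3, limma 3.58.1), using TMM factors, filterByExpr and robust quasi-likelihood fits over all libraries of a fraction, and the interaction over the libraries of both fractions. Calls required an adjusted p (Benjamini-Hochberg) below 0.05 with a log2 fold change past 0.6 in size, and the fits were tested on simulated data. Alternatives were DESeq2 (1.42.0), other scaling, filters, spans and CPM limits, a replicate block and leaving out each library. Same-numbered nuclear libraries deviated together in each of 12 pairs (r from 0.234 to 0.891), so the numbers pair them. mRNA replicate numbers follow the library names in the labels, and which mRNA CTRL library is replicate 1 and which replicate 2 is uncertain, since the study's sources differ. Named genes were the most changed called members of each comparison, the most abundant of each role list, and the longest and most abundant members. EYS, KIF26B, MARCHF1, MTUS2 and TTN were named for their interaction. Members, lists and tests were chosen with earlier results of these data known. Intervals and floors (3 counts) cover counting error only.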

Additional observations from a re-analysis of the deposited data

Results flagged for a closer look

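In 4 members the response to KCl 1h differed between nuclear RNA and mRNA by the interaction test, with the log2 fold change in nuclear RNA minus that in mRNA at 2.90 in KIF26B, 2.16 in EYS, 1.60 in MARCHF1 and 1.28 in TTN. KIF26B (3.17 in nuclear RNA, 0.16 in mRNA) and EYS (2.91 and 0.67) were higher in nuclear RNA. MARCHF1 (-0.26 and -1.95) was lower in mRNA, and TTN had opposite signs (0.62 and -0.76). MTUS2, at 5.43 (6.23 and 0.70), passed the same threshold but was selected on its treated nuclear libraries, so its value is a description. With each of the 12 libraries left out in turn, KIF26B and TTN were still called every time, EYS lost its call in 9 fits (edgeR adjusted p up to 0.103) and MARCHF1 in 9 (up to 0.134).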

How the results depend on the processing

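Under the alternatives run no value changed direction past its threshold. Of 816 alternative values of 67 named results, 754 kept their direction and side of the threshold and 62 kept the direction only, 58 of them with 1 library left out. Causes of the changes were not tested.

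Members called, as a percentage of members, went with a mean CPM of 5 or more from 7.24 to 4.80 in nuclear JTE 1h, from 11.1 to 5.60 in nuclear KCl 1h, from 0.563 to 0 in mRNA JTE 1h and from 4.23 to 2.40 in mRNA KCl 1h. Without members that have a facing or upstream expressed gene, an alternative chosen after seeing the data, the same 4 were 2.22, 4.81, 0 and 1.50, mRNA JTE 6h went from 9.30 to 4.87 and mRNA KCl 3h from 8.73 to 5.62. In the fit of 6 libraries mRNA JTE 1h was 0 and JTE 6h 5.31. For mRNA JTE 1h the percentage was also 0 with spans of 500000 bases or more and with the CPM limit on untreated libraries. Without a fold limit mRNA JTE 18h went from 4.79 to 8.45. Without the low-count filter the interaction gave 0.279 for IM 18h, 1.39 for JTE 1h and 2.23 for KCl 1h. With the replicate block, which pairs the nuclear libraries, it gave 0.563 for JTE 1h and 2.23 for KCl 1h, and the block moved no other share of members called by over 1.5 times. The median log2 fold change of members minus that of 10 to 100 kb genes went from 0.32 to 0.21 in nuclear IM 18h with spans of 200000 bases or more, and from 0.22 to 0.30 in mRNA IM 18h with 500000 or more.

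With 1 library left out, that difference ranged from 0.13 to 0.22 in nuclear KCl 1h, highest without CTRL replicate 1, and it changed sign in mRNA in IM 1h, IM 6h, JTE 1h, JTE 6h and JTE 18h, where it was small throughout. In mRNA at KCl 1h TTN lost its call without CTRL replicate 2 or KCl 1h replicate 3. Percentages called ranged from 7.61 (without IM 6h replicate 3) to 12.7 in mRNA IM 6h, from 0.282 to 0.563 in JTE 1h (lowest without any CTRL replicate or JTE 1h replicate 1 or 3), from 2.54 to 3.94 in JTE 18h (lowest without JTE 18h replicate 1 or 3, low also without CTRL replicate 2 or 3) and from 2.54 (without CTRL replicate 1) to 3.94 in KCl 1h. In the KCl 1h interaction they ranged from 0.557 (without mRNA CTRL replicate 3) to 1.39, and were 0.836 without nuclear CTRL replicate 2 or 3 or nuclear KCl 1h replicate 1 or 3.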
